A study of Mus musculus with 11 samples.

Results

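Hepatic stellate cell and extracellular matrix genes were followed in the livers of 11 male mice. The set of 36 genes was chosen by symbol: collagens, proteoglycans, glycoproteins, remodelling enzymes and their inhibitors, stellate cell markers, and receptors and ligands of the PDGF and TGF-beta pathways. Of these, 35 had a probe set with that symbol in the platform annotation, out of 12393 genes with a probe set in all. The remaining gene, Fbn1 (fibrillin-1), was not analysed here. The 35 genes had 69 probe sets. A gene was tested when its brightest probe set was above the dimmest 40% of the array by mean log2 signal (a geometric mean signal of 52.96). Of the 35 genes 29 were above this dim limit, and Col1a1, Lox, Loxl1, Timp1, Des and Tagln were not.

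Liver RNA was hybridised to Affymetrix expression arrays, 1 array per mouse. The first group was wild-type mice on a normal diet (n = 3), the second wild-type mice on a high-fat (HF) diet (n = 4) and the third Akt1 double transgenic (DTG) mice on the HF diet (n = 4). All 11 mice were male, of a mixed background, and received doxycycline for 3 weeks, so the wild-type controls carried the drug too; only the DTG mice were labelled as having muscle hypertrophy. How long the diets lasted and which promoter drives the transgene are not given in the sources used here. With no DTG mice on the normal diet, the effect of the transgene could be read only under the HF diet. The series asks how the HF diet and muscle growth driven by Akt1 bear on the liver's transcripts.

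Hepatic stellate cells lie in the space between the sinusoidal endothelium and the hepatocytes. At rest they store vitamin A as retinyl esters, made by the enzyme Lrat. On injury they can turn into myofibroblasts that express alpha-smooth muscle actin (Acta2) and lay down fibril collagens, under the influence of TGF-beta, which drives matrix synthesis, and PDGF, which drives proliferation. Matrix amount is set by synthesis and also by breakdown, in which matrix metalloproteinases cut collagen and tissue inhibitors of metalloproteinases (Timps) restrain them.

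Proximal promoters of 4 genes are printed because these genes (Col1a2, Col3a1, Bgn and Vim) all had their highest signal of the study on the same wild-type HF array, described further on. Each is the 250 bases before the RefSeq start of the gene on GRCm38.p6, on the plus strand, at chr6:4505368-4505617 for Col1a2, chr1:45311288-45311537 for Col3a1, chrX:73483351-73483600 for Bgn and chr2:13574061-13574310 for Vim. Capitals mark matches to the CCAAT box, to the motif GGGCGG (an Sp1-type GC box) or to the motif TATAAA (the TATA box), with both strands searched.
Col1a2: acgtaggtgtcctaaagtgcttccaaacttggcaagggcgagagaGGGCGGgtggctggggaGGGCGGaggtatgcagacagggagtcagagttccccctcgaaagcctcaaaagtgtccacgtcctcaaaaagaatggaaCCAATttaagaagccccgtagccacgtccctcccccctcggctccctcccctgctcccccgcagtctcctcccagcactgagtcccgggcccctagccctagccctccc
Col3a1: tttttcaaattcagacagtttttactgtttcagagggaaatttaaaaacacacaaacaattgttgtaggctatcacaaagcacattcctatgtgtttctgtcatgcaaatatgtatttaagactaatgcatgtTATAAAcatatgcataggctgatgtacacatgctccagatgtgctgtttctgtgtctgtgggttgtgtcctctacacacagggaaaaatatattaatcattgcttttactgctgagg
Bgn: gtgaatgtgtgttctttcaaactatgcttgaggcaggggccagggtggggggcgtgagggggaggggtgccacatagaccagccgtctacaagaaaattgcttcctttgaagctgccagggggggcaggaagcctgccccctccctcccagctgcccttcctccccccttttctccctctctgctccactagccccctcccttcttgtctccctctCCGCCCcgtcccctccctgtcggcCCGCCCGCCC
Vim: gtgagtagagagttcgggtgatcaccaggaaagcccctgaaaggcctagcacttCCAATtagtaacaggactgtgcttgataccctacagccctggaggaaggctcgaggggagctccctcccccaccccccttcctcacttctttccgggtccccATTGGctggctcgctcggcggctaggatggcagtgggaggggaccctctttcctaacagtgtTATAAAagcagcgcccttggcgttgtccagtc

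Col1a2 held CCAAT from 109 to 105 bases before its start and GGGCGG from 205 to 200 and from 188 to 183. Vim held TATAAA from 32 to 27 bases before its start and CCAAT once on each strand. In Bgn the capitals were GGGCGG on the opposite strand, with the last 2 matches overlapping, and Col3a1 held TATAAA alone, from 117 to 112. The 25 genes of the set with a window in the RefSeq table had 28 windows, of which 10 held CCAAT, 17 held GGGCGG and 3 held TATAAA. Of 32851 windows of all genes, 33.8% held CCAAT, 32.7% GGGCGG and 12.4% TATAAA. These are letter matches, not measured binding. Col1a1, Col5a2, Col14a1, Dcn, Lum, Fn1, Lox, Loxl1, Mmp2, Tagln and Pdgfrb had no window in that table.

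The arrays were scaled alike, with a mean signal after trimming between 500.251 and 500.285 and a median between 97.2 and 118.5, so the signal is a relative brightness and only 3 or 4 arrays a group limit its precision. The brightest signals were 42425.5 and 43272.9 on DTG arrays 3 and 4 against 27779.5 to 35450.1 on the other 9. The liver Akt1 signal was 415 ± 58.6 in wild-type mice on the normal diet, 467 ± 41.3 on the HF diet and 496 ± 70.5 in DTG mice (SD, n = 3, 4 and 4), with overlapping ranges. Of further stellate cell markers, 14 of 18 were above the dim limit and 4 (Hand2, Gfap, Vipr1 and Hhip) were under it. Of portal fibroblast markers 7 of 10 were under it, of smooth muscle markers 5 of 9, and of hepatocyte markers 0 of 11. Array numbers are those of the sample titles.

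In no comparison did a matrix or stellate cell gene pass an adjusted p of 0.05 (limma, Benjamini-Hochberg over 7924 genes). For the HF diet in wild-type mice 0 of 29 passed, with a background of 0% of all genes. For DTG against wild-type mice on the HF diet 0 of 29 passed, against 0.366% of all genes. For DTG mice on the HF diet against wild-type mice on the normal diet 0 of 29 passed, against 2.08% of all genes. At an unadjusted p under 0.05 there were 2 genes for the diet (6.9% of the 29, against 7.02% of all genes), 4 for DTG against wild type (13.8%, against 13.7%) and 0 for DTG against the normal diet (18.3% of all genes). By direction, the diet had 2 higher and 0 lower (3.92% and 3.09% of all genes), DTG against wild type 2 higher and 2 lower (6.95% and 6.74%), and DTG against the normal diet 0 and 0 (9.96% and 8.35%). Each total was near or below its background. Over all 69 probe sets, dim ones included, 0 passed in each comparison, against 0%, 0.141% and 0.968% of all 22626 probe sets, and 3, 8 and 3 had an unadjusted p under 0.05 (6.09%, 10.9% and 13.3% of all).

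The median log2 difference of the 29 genes was 0.17 for the HF diet, with 21 of 29 above 0, beside 0.0067 over all genes, of which 51.1% were above 0. For DTG against wild-type mice on the HF diet it was 0.061, with 15 of 29 above 0 (50.2% of all genes), and its sign changed to -0.0071 under quantile normalization. For DTG mice against the normal diet it was 0.15, with 18 of 29 above 0 (50.6% of all genes). The SD of this median between single arrays of a group was 0.20. In whole liver, a lower or higher signal cannot be assigned to fewer or more cells of a type or to less or more RNA per cell.

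**Figure D1:**
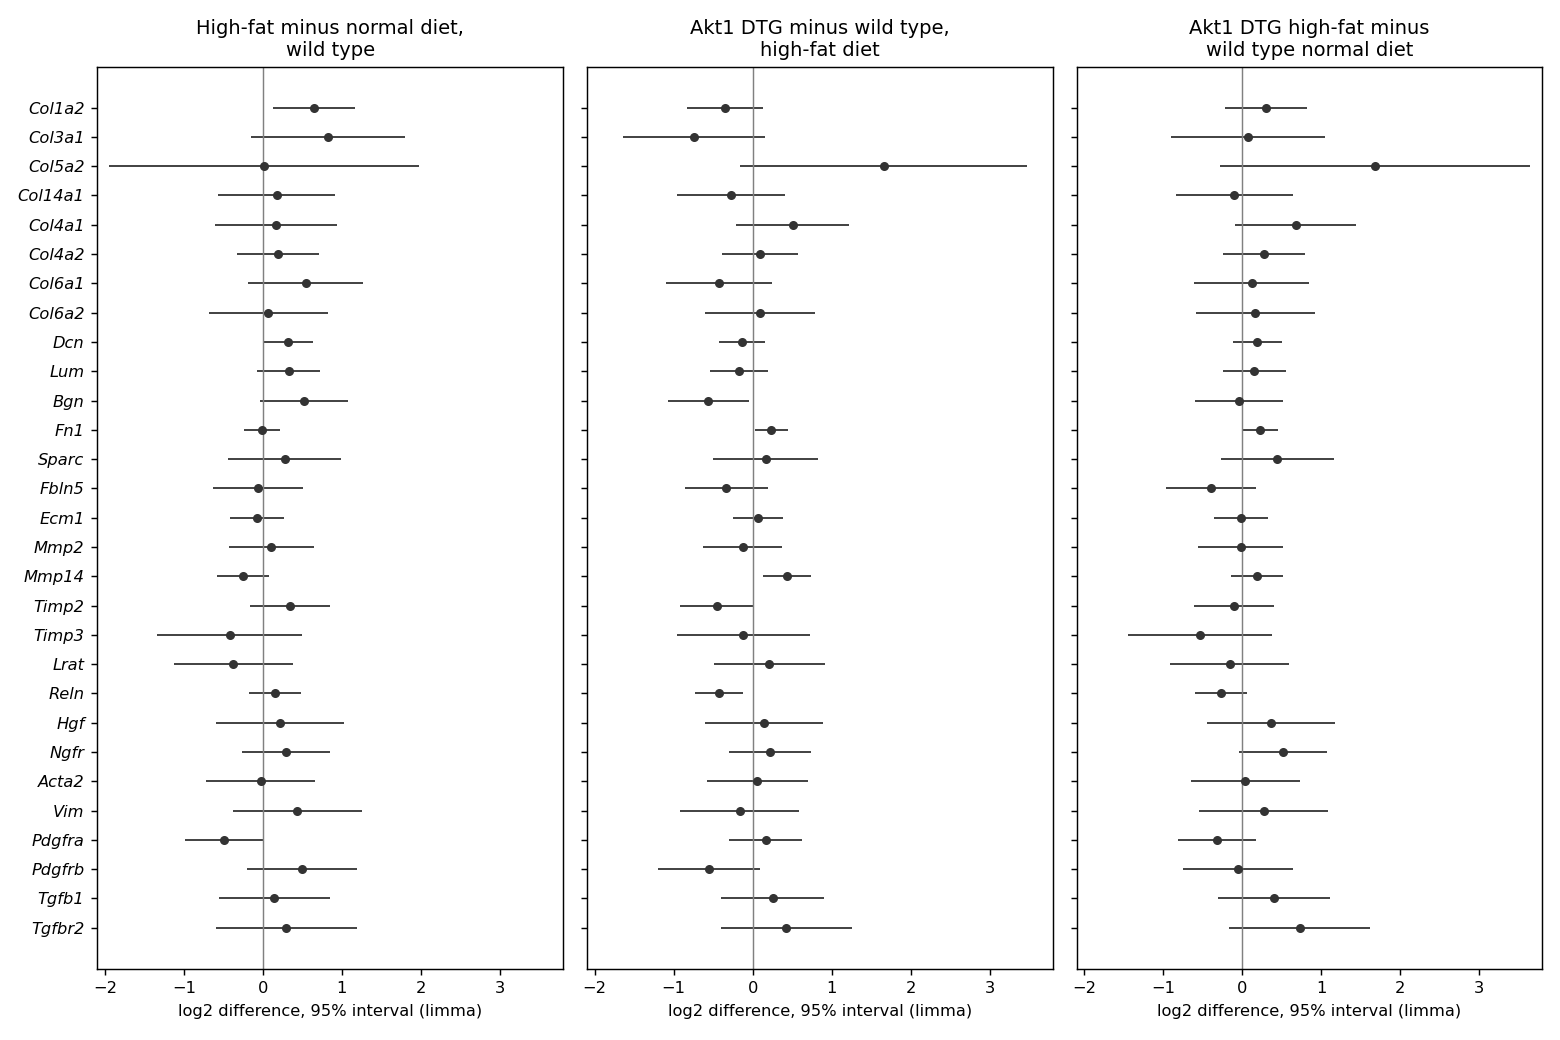
Log2 difference in signal (x axis) of the 29 tested genes (y axis) in the 3 comparisons, with points for limma estimates and bars for 95% intervals. Most intervals cross 0, and those of Col5a2 were the widest.

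For most of the 29 genes the interval left out a 2-fold change, but their intervals were wider than those over all genes. The median half-width was 0.69, 0.64 and 0.69 on the log2 scale in the 3 comparisons, beside 0.40, 0.37 and 0.40 over all genes. The 95% interval of the difference lay wholly within a 2-fold change in either direction for 18 of 29 genes for the diet. The count was 22 for DTG against wild type and 19 for DTG against the normal diet. Of all 7924 genes it was 6668, 6645 and 6228 in the same order, a larger share in each comparison. For Col3a1, Col5a2 and Tgfbr2 a 2-fold difference lay inside the interval in all 3 comparisons.

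Among fibril collagens, Col1a2, which codes for the alpha-2 chain of type I collagen, had the smallest p for the diet. Its signal was 177.9, 164.1 and 209.1 on the normal diet, 252.4, 470.6, 212.6 and 267.2 in wild-type mice on the HF diet, and 183.9, 258.4, 227.0 and 235.6 in DTG mice. Every wild-type HF array was above every normal-diet array, the only gene of the 29 of which this was true, beside 4.58% of all genes; the DTG arrays overlapped both groups. The log2 difference was 0.65 ± 0.24 for the diet (limma estimate ± standard error, 95% interval 0.13 to 1.17, adjusted p = 0.670), and 0.41 without wild-type HF array 2. It was -0.35 ± 0.22 for DTG against wild type on the HF diet (adjusted p = 0.518) and 0.30 ± 0.24 for DTG against the normal diet (adjusted p = 0.544). These comparisons share the wild-type HF arrays or the normal-diet arrays and are not independent of each other.

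Col3a1 codes for type III collagen, which co-assembles with type I collagen in fibrils. Its signal was 191.2, 396.4 and 577.5 on the normal diet, 484.2, 1277.0, 397.9 and 606.7 in wild-type HF mice and 424.2, 589.3, 223.5 and 338.5 in DTG mice. The normal-diet arrays alone spanned 191.2 to 577.5, and the groups overlapped in every comparison. The log2 difference was 0.82 ± 0.45 for the diet (adjusted p = 0.777) and -0.75 ± 0.41 for DTG against wild type (adjusted p = 0.458). Without wild-type HF array 2 the values were 0.47 and -0.40, and without normal-diet array 1, the lowest of its group, the diet value was 0.38.

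Col5a2, a chain of type V collagen that sets fibril diameter, had 1 array apart from all others. Its signal was 68.0, 46.1 and 85.4 on the normal diet, between 32.7 and 100.4 (mean 72.0 ± 33.8, SD, n = 4) in wild-type HF mice, and 84.4, 1926.0, 91.4 and 121.3 in DTG mice. DTG array 2 was 15.9 times the highest of the other 10 arrays, and at the second, dimmer Col5a2 probe set 6.44 times (232.5 against 36.1). No other gene of the 7924 had a single array over 4-fold above every other array. The log2 difference for DTG against wild type was 1.66 ± 0.84 (adjusted p = 0.409), and 0.59 without that array. Col3a1, its neighbour on chromosome 1, was at 589.3 on the same array, inside the range of the wild-type HF arrays.

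**Figure D2:**
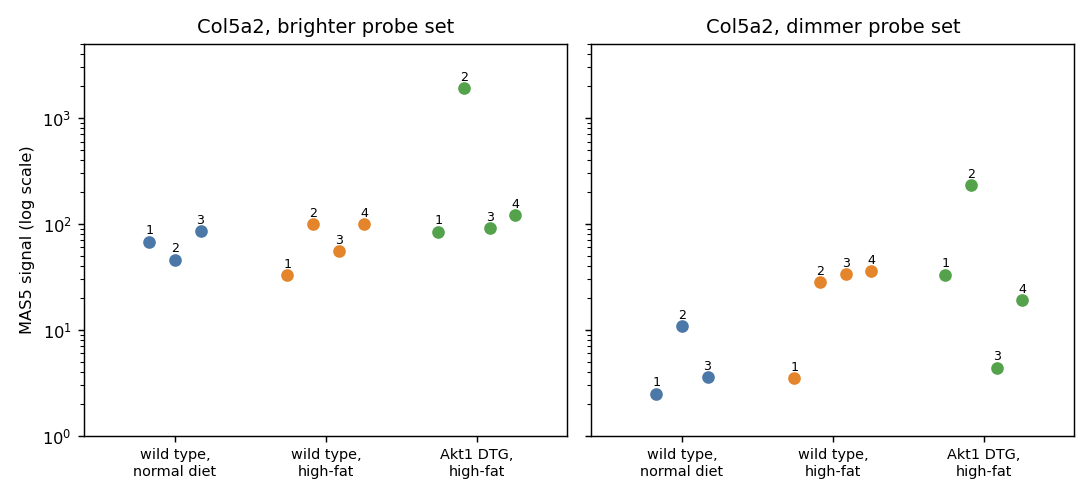
Signal of the 2 Col5a2 probe sets on each array (y axis, log scale) by group (x axis), with dots labelled by array number. DTG array 2 stands at 1926.0 and 232.5, above every other array at both probe sets.

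Col14a1, a fibril-associated collagen, ranged from 308.1 to 900.3 over all 11 arrays, with log2 differences of 0.17 ± 0.34 for the diet and -0.28 ± 0.31 for DTG against wild type. Its DTG arrays split into 743.7 and 883.5 (arrays 1 and 2) and 308.1 and 397.1 (arrays 3 and 4), and without arrays 3 and 4 the difference from wild type became 0.33. Col1a1, the alpha-1 chain of type I collagen, was under the dim limit at both probe sets, with 3.7 to 73.2 on the normal diet, 10.7 to 132.9 in wild-type HF mice and 10.1 to 29.3 in DTG mice at the brighter one. The second Col1a2 probe set, also dim, read 14.1 to 33.5, 30.8 to 104.4 and 25.8 to 38.0 in the same order, with 104.4 on wild-type HF array 2.

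Of the network and beaded filament collagens, Col4a1 and Col4a2 are the common chains of basement membrane type IV collagen and lie head to head on chromosome 8. Col4a1 read 121.9, 257.5 and 255.6 on the normal diet, 162.0, 294.1, 191.5 and 280.6 in wild-type HF mice and 179.4, 368.2, 470.3 and 334.2 in DTG mice. DTG arrays 2, 3 and 4 were above all arrays of the other 2 groups and DTG array 1 was among them. The log2 difference for DTG against the normal diet was 0.67 ± 0.35 (adjusted p = 0.337), and leaving out single arrays moved it from 0.32 (without normal-diet array 1) to 0.95 (without DTG array 1). A second Col4a1 probe set read 130.7, 131.5 and 101.0, then 195.1, 145.5, 161.0 and 171.2, then 158.6, 259.4, 344.2 and 221.1 in that group order. There the normal-diet arrays lay below both HF groups. Of all genes, each at its brightest probe set, 4.58% were higher without overlap for the diet and 8.46% for DTG against the normal diet. At the second Col4a1 probe set the log2 difference for DTG against the normal diet was 0.98 ± 0.24 (adjusted p = 0.0873 over all probe sets). Without DTG array 1 it was 1.17 ± 0.22 and passed (adjusted p = 0.0329 over all probe sets), the only call of a probe set of the 69 in any leave-one-out fit.

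Col4a2 had means of 185, 211 and 233, with log2 differences of 0.18 ± 0.24 for the diet and 0.28 ± 0.24 for DTG against the normal diet (adjusted p = 0.925 and 0.579). Its highest arrays were DTG arrays 2 and 3 (294.3 and 300.5), and DTG array 1 was the lowest of the study at 152.7. Col6a1 and Col6a2 code for chains of beaded filament type VI collagen. Col6a1 had means of 81.4, 119.8 and 84.2, with 192.2 on wild-type HF array 2 and no other array above 114.1, and a log2 difference for the diet of 0.54 ± 0.33 (adjusted p = 0.804). Col6a2 ranged from 68.4 to 184.1 at its brighter probe set, with log2 differences of 0.070 ± 0.35 and 0.092 ± 0.32 for the diet and for DTG against wild type. Its other probe set, under the dim limit, read 33.0, 119.4, 96.6 and 107.7 in wild-type HF mice and 15.4, 33.9, 22.8 and 15.4 in DTG mice, a log2 difference of -1.95 ± 0.53 (adjusted p = 0.180 over all probe sets). The 2 Col6a2 probe sets differed in sign for that comparison.

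**Figure D3:**
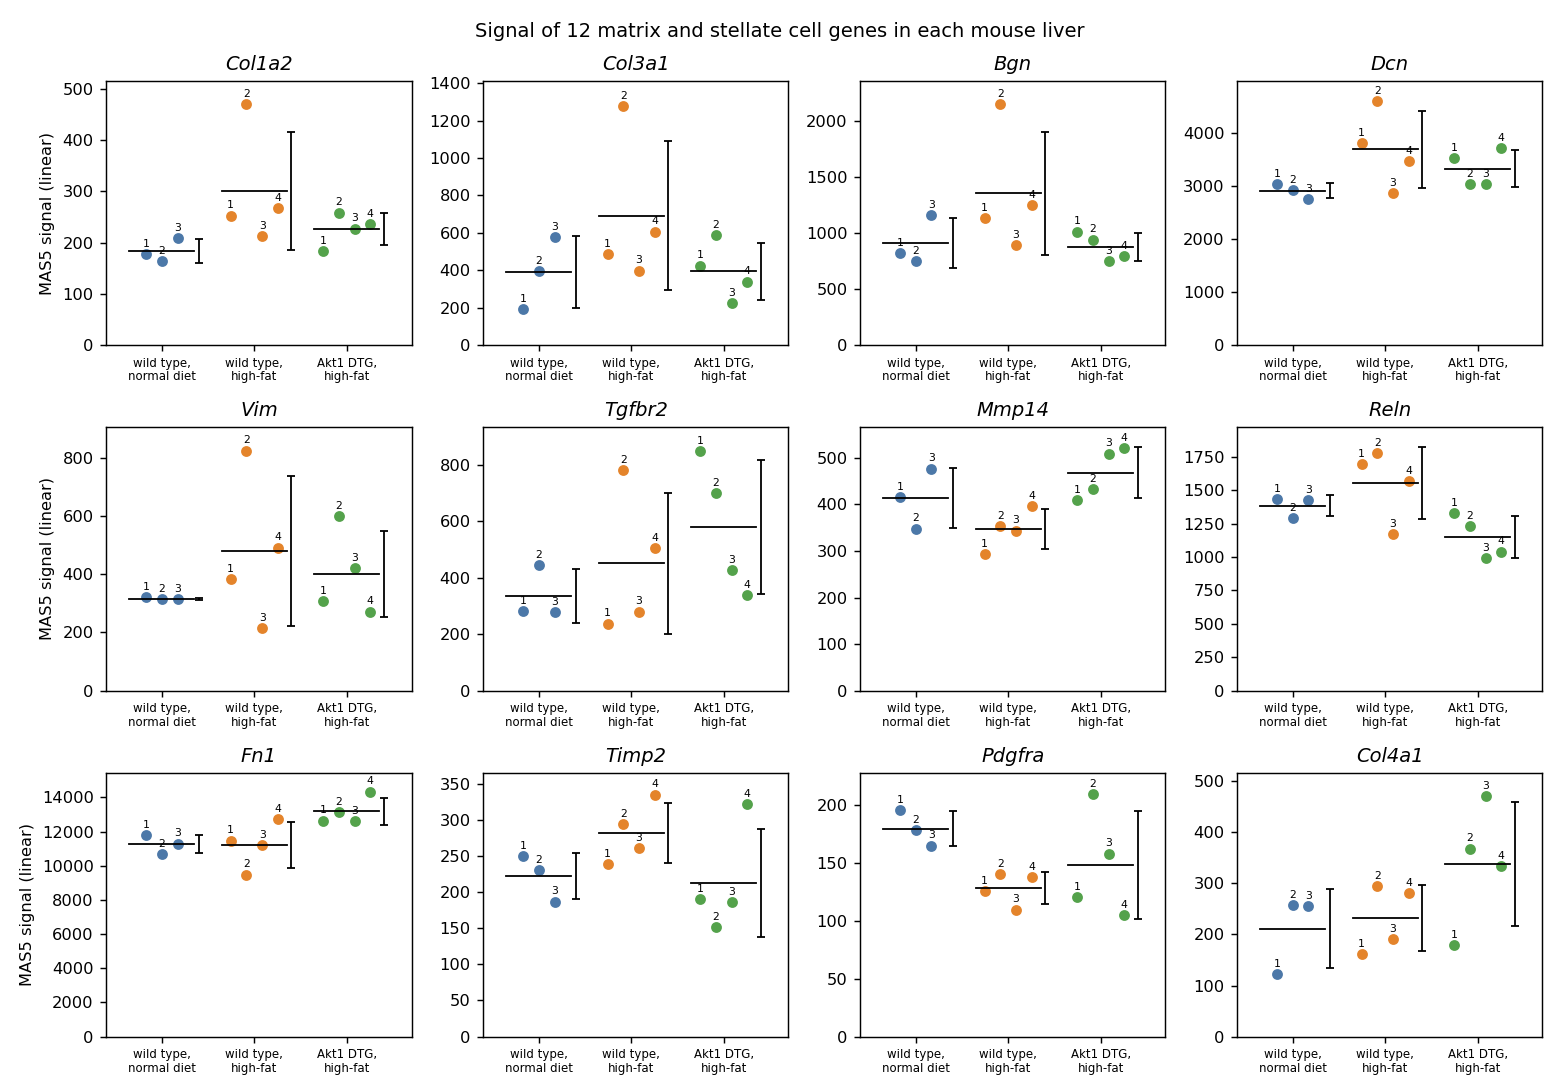
MAS5 signal (y axis, linear from 0) of 12 genes in each mouse, by group (x axis), with dots labelled by array number, lines for means and bars for 1 SD. Wild-type HF array 2 is the highest of its group for Col1a2, Col3a1, Bgn, Dcn, Vim, Tgfbr2, Reln, Pdgfra and Col4a1. The 4 DTG arrays lie above the 4 wild-type HF arrays for Mmp14.

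The small leucine-rich proteoglycans decorin (Dcn), lumican (Lum) and biglycan (Bgn) bind collagen fibrils and regulate their assembly. All 3 had a higher mean in wild-type HF mice than in the other 2 groups. Dcn read 3035.6, 2924.7 and 2756.5 on the normal diet, 3810.0, 4602.7, 2865.9 and 3465.3 in wild-type HF mice and 3522.9, 3030.3, 3039.2 and 3717.8 in DTG mice. Array 3 of the wild-type HF group lay inside the normal-diet range. The log2 difference for the diet was 0.32 ± 0.14 (unadjusted p = 0.0443, adjusted p = 0.692 by limma), and 0.21 without wild-type HF array 2. Lum had a log2 difference of 0.32 ± 0.18 for the diet (adjusted p = 0.797), with means of 335, 425 and 375.

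Bgn read 820.5, 751.3 and 1162.7 on the normal diet, 1137.1, 2153.6, 894.4 and 1249.3 in wild-type HF mice and 1013.2, 942.5, 752.5 and 795.4 in DTG mice. Groups overlapped in each comparison, and 3 of the 4 wild-type HF arrays were above every DTG array. The log2 difference was 0.52 ± 0.25 for the diet (adjusted p = 0.734) and -0.56 ± 0.24 for DTG against wild type on the HF diet (adjusted p = 0.315). Without wild-type HF array 2 these were 0.28 and -0.32. The other 2 Bgn probe sets also had their highest signal on that array, at 1212.0 and 1358.9, but they did not give the same differences throughout. For the diet they gave 0.42 ± 0.38 and 0.021 ± 0.20. At the latter, the brighter of the pair, every DTG array (645.1 to 778.3) was below every normal-diet array (837.9 to 925.7), with a log2 difference of -0.29 ± 0.20 (adjusted p = 0.590 over all probe sets). Of all genes, each at its brightest probe set, 7.1% had that order.

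Among the glycoproteins, fibronectin (Fn1) is made in large amounts by hepatocytes as a plasma protein and also by matrix-producing cells, so its liver signal is not that of stellate cells alone. Fn1 read 11811.7, 10706.8 and 11302.5 on the normal diet, 11474.2, 9486.6, 11199.1 and 12755.1 in wild-type HF mice and 12649.0, 13143.2, 12612.8 and 14337.5 in DTG mice. All DTG arrays were above all normal-diet arrays, the only gene of the 29 to be so in that comparison, beside 8.46% of all genes; wild-type HF array 4 overlapped the DTG range. Its log2 difference was 0.24 ± 0.096 for DTG against wild type (adjusted p = 0.300) and 0.23 ± 0.10 for DTG against the normal diet (adjusted p = 0.276). Fn1 also had the smallest SD of log2 signal among the 29 genes in DTG mice, 0.086. The summed signal of 11 hepatocyte markers ranged from 177318 to 208772 on the normal diet, 202095 to 223556 in wild-type HF mice and 210097 to 282943 in DTG mice, and its part in the Fn1 values was not tested. A second Fn1 probe set had means of 461, 380 and 459.

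Sparc (osteonectin), a collagen-binding protein, was split within both HF groups. It read 589.2, 638.7 and 556.4 on the normal diet, 933.2, 1209.9, 470.6 and 502.5 in wild-type HF mice and 983.9, 1154.3, 557.8 and 664.2 in DTG mice. In both HF groups arrays 1 and 2 were the highest and arrays 3 and 4 were near or below the normal-diet range, and the second Sparc probe set had arrays 1 and 2 above arrays 3 and 4 in both groups too. The log2 differences were 0.28 ± 0.33 for the diet and 0.44 ± 0.33 for DTG against the normal diet (adjusted p = 0.922 and 0.513). Fbln5 (fibulin-5, an elastic fibre protein) had log2 differences of -0.065 ± 0.26, -0.33 ± 0.24 and -0.40 ± 0.26 for the diet, DTG against wild type and DTG against the normal diet. Ecm1 (extracellular matrix protein 1) had means of 1619, 1533 and 1588 and log2 differences between -0.080 and 0.066, with 95% intervals inside a 2-fold change in each comparison.

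Of the enzymes that cross-link or remodel the matrix, Mmp14 showed the smallest p of the set for DTG against wild type. Mmp14 is a membrane-bound metalloproteinase that cuts fibril collagen and activates Mmp2. It read 416.0, 348.0 and 476.8 on the normal diet, 292.6, 354.1, 344.0 and 396.6 in wild-type HF mice and 409.3, 433.3, 509.0 and 520.4 in DTG mice. Every DTG array was above every wild-type HF array, the only gene of the 29 with this pattern, beside 4.32% of all genes, and the normal-diet arrays overlapped both. In the opposite direction, taking the brightest probe set of each, 0 of 29 genes had every DTG array below every wild-type HF array (4.09% of all genes), and 0 had every DTG array below every normal-diet array (7.1%). For Mmp14 the log2 difference was 0.43 ± 0.14 (95% interval 0.13 to 0.74, adjusted p = 0.209), against -0.25 ± 0.15 for the diet and 0.18 ± 0.15 for DTG against the normal diet. Its adjusted p ranged from 0.136 to 0.573 over the alternatives. The second Mmp14 probe set gave 0.69 ± 0.24 for DTG against wild type (adjusted p = 0.300 over all probe sets), with wild-type HF signals of 142.5, 91.3, 154.8 and 132.0 and DTG signals of 153.0, 212.3, 293.2 and 189.2 of which 1 wild-type HF array was above 1 DTG array.

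Mmp2 (gelatinase A), secreted by stellate cells, had means of 93.4, 101 and 94.0 and log2 differences between -0.13 and 0.10. A second Mmp2 probe set, dimmer but above the dim limit, had the opposite sign in each comparison. It gave -0.25 ± 0.67 for the diet, 0.49 ± 0.62 for DTG against wild type and 0.25 ± 0.67 for DTG against the normal diet. The lysyl oxidases Lox and Loxl1, which cross-link collagen and elastin, were dim. The 3 Lox probe sets ranged from 1.1 to 29.1 over all arrays, and Loxl1 from 8.9 to 123.5, the highest again on wild-type HF array 2.

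Of the metalloproteinase inhibitors, Timp2 read 249.5, 230.3 and 186.7 on the normal diet, 238.9, 294.0, 261.0 and 334.8 in wild-type HF mice and 190.7, 152.0, 186.5 and 322.1 in DTG mice. DTG arrays 1 to 3 were below every wild-type HF array and DTG array 4 was above 3 of them. The log2 difference for DTG against wild type was -0.45 ± 0.21 (adjusted p = 0.377). Timp2 had 6 probe sets, and at another bright one the DTG mean was above the wild-type HF mean (224 against 206). Timp3, which stays bound to the matrix, had means of 254, 194 and 178 and log2 differences of -0.42 ± 0.42 for the diet and -0.12 ± 0.39 for DTG against wild type. The other 3 Timp3 probe sets gave -0.72 ± 0.32, -0.11 ± 0.37 and 0.25 ± 0.29 for DTG against wild type (adjusted p = 0.429, 0.944 and 0.808 over all probe sets), and 0.54, -0.19 and 0.12 for the diet in the same order. The probe sets of Timp3 thus differed in sign in both comparisons. Timp1, the inhibitor most often followed in fibrosis, was dim, between 1.3 and 52.1 on all arrays.

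Among the stellate cell markers, Reln (reelin), a secreted glycoprotein expressed by these cells in liver, was the clearest by p. It read 1434.0, 1292.1 and 1424.0 on the normal diet, 1696.6, 1773.8, 1173.4 and 1567.9 in wild-type HF mice and 1330.1, 1230.8, 993.6 and 1040.5 in DTG mice. In the wild-type HF group 3 arrays were above all DTG arrays and array 3 lay among them, while DTG arrays 3 and 4 were the lowest of the study. The log2 difference was -0.43 ± 0.14 for DTG against wild type (adjusted p = 0.212) and -0.28 ± 0.15 for DTG against the normal diet (adjusted p = 0.361). Without DTG arrays 3 and 4, on which hepatocyte markers had their highest medians (log2 differences from the normal-diet mean of 0.51 and 0.55), the first value was -0.26. What part these arrays play in the Reln values was not tested.

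The other stellate cell markers did not share that order. Lrat, which esterifies retinol for storage, had means of 87.6, 68.05 and 85.2, with a DTG range from 42.1 to 138.6 that held all other arrays. Hgf (hepatocyte growth factor), which stellate cells secrete, read 158.0, 144.1, 46.6 and 100.1 in DTG mice against 67.3 to 91.7 on the normal diet, a log2 difference of 0.36 ± 0.37 between these groups. Wild-type HF mice read 74.2 to 109.0, and DTG against wild type was at 0.14 ± 0.34. A second Hgf probe set above the dim limit gave 0.71 ± 0.39 and 0.75 ± 0.37 for the same comparisons (adjusted p = 0.475 and 0.487 over all probe sets). Ngfr (the p75 neurotrophin receptor) had means of 77.5, 94.8 and 111 and a log2 difference for DTG against the normal diet of 0.51 ± 0.26 (adjusted p = 0.313). Des (desmin), an intermediate filament of rodent stellate cells, was dim at both probe sets, with 9.7 to 86.9 on the normal diet and 11.2 to 82.4 in DTG mice at the brighter one. Of 14 further stellate cell markers, 1 passed in any comparison: Steap4, a metalloreductase also found in hepatocytes and fat. Its log2 difference was 1.15 ± 0.20 for DTG against the normal diet (adjusted p = 0.0157 by limma), where 2.08% of all genes passed. The Steap4 call was lost without normal-diet array 1 (adjusted p = 0.0565) or DTG array 4 (0.0530). At an unadjusted p under 0.05, 3 of the 14 were higher and 0 lower in that comparison (9.96% and 8.35% of all genes), with a median log2 difference of 0.27. The summed signal of all 18 further stellate cell markers with a probe set, 4 dim ones included, ranged from 13502 to 17807 on the normal diet. It was 14918 to 17588 in wild-type HF mice and 17630 to 24560 in DTG mice. Bright genes weigh most in such a sum of linear signals. The list also holds genes, such as Steap4, that are not particular to stellate cells.

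Acta2, the actin of smooth muscle and of activated stellate cells, had means of 249 ± 52.6, 247 ± 67.4 and 268 ± 101 (SD). Its log2 difference was -0.027 ± 0.32 for the diet (95% interval -0.72 to 0.66) and 0.061 ± 0.29 for DTG against wild type (-0.58 to 0.70), which ranged from -0.12 without DTG arrays 3 and 4 to 0.36 without DTG array 1. Tagln (transgelin), another contractile protein, was dim, between 5.7 and 157.5. Vim (vimentin), an intermediate filament of mesenchymal cells, endothelium and leukocytes, read 320.5, 314.9 and 314.3 on the normal diet, 383.6, 823.9, 215.2 and 491.4 in wild-type HF mice and 307.7, 600.5, 421.0 and 271.4 in DTG mice. The normal-diet arrays lay between 314.3 and 320.5, while the wild-type HF arrays reached from 215.2 to 823.9. The log2 difference for the diet was 0.43 ± 0.38 (adjusted p = 0.878), and 0.12 without wild-type HF array 2.

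In growth factor signalling, the receptor Pdgfra was the only gene of the 29 with every wild-type HF array below every normal-diet array, beside 3.33% of all genes. It read 195.1, 178.2 and 164.7 on the normal diet, 125.4, 140.1, 109.5 and 137.4 in wild-type HF mice and 120.0, 209.3, 157.7 and 104.9 in DTG mice. The DTG arrays spanned both other groups. The log2 difference for the diet was -0.49 ± 0.23 (adjusted p = 0.709), and -0.33 ± 0.23 for DTG against the normal diet. Pdgfrb, the PDGF receptor of activated stellate cells and pericytes, had means of 90.0, 126 and 84.5 and log2 differences of 0.49 ± 0.32 for the diet and -0.55 ± 0.30 for DTG against wild type (adjusted p = 0.807 and 0.441). The ligand Tgfb1 had means of 93.7, 109 and 127, with its highest arrays numbered 2 in both HF groups (156.7 and 180.9).

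Tgfbr2, the type II TGF-beta receptor, read 283.0, 446.5 and 278.5 on the normal diet, 237.7, 781.3, 280.9 and 504.2 in wild-type HF mice and 849.8, 699.6, 426.6 and 339.0 in DTG mice. High arrays occurred in both HF groups, and each group overlapped the others. The log2 difference was 0.72 ± 0.41 for DTG against the normal diet (adjusted p = 0.377). A second, dimmer Tgfbr2 probe set read 13.9 to 59.9 on the normal diet and 88.8 to 124.6 in DTG mice, without overlap (log2 difference 1.74 ± 0.54, adjusted p = 0.167 over all probe sets). At the brightest probe set of each gene, 8.46% of all genes were higher without overlap in that comparison. The share over all probe sets was not counted.

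**Figure D4:**
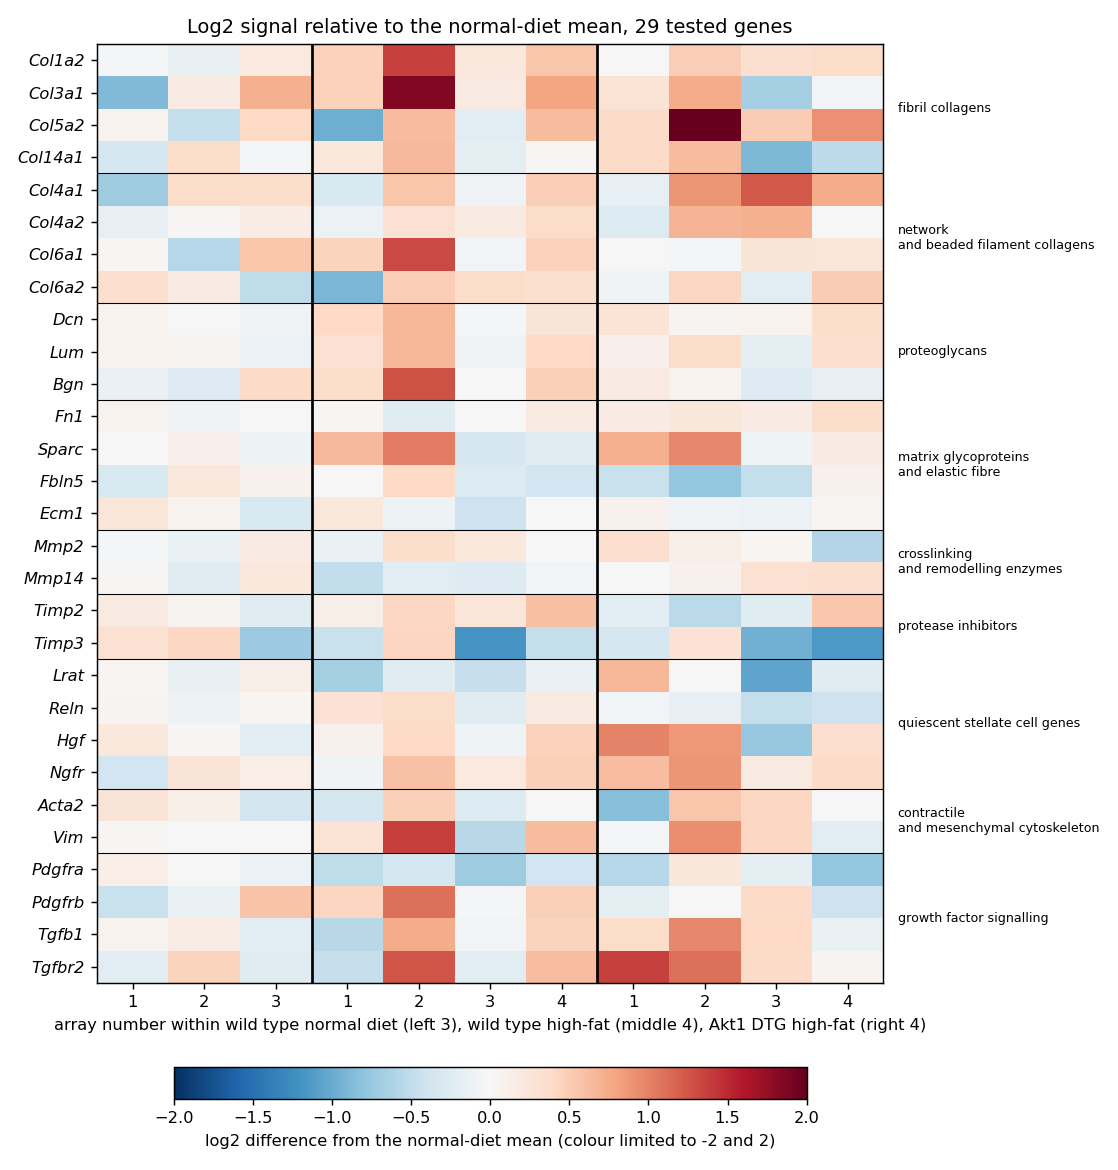
Log2 signal of the 29 tested genes (rows, grouped by role) on each of the 11 arrays (columns, grouped as normal diet, wild-type HF and DTG HF), relative to the normal-diet mean, with red above and blue below it. Wild-type HF array 2 is red in most rows, and Col5a2 on DTG array 2 is beyond the colour limit.

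Spread between mice of a group was wide for these genes in the HF groups. The median SD of log2 signal was 0.23 on the normal diet, 0.36 in wild-type HF mice and 0.44 in DTG mice, beside 0.21, 0.21 and 0.23 over all genes. In wild-type HF mice 26 of 29 genes had an SD above the all-gene median, in DTG mice 21 and on the normal diet 17. Part of the wild-type HF spread followed 1 mouse. Array 2 was the highest of its group for 21 of 29 genes (72.4%), beside 31.6% of all genes, and its median log2 difference from the normal-diet mean over the set was 0.55. Arrays 1, 3 and 4 of that group had medians of 0.027, -0.066 and 0.36. Array 3 was the lowest for 15 of the 29 and the highest for 0, beside 23.5% and 24.3% of all genes. Among DTG mice, array 2 was the highest for 12 of 29 (41.4%, beside 29.2% of all genes) and had a median of 0.36, against 0.094, 0.039 and 0.049 on the others.

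Macrophage markers were also highest on array 2 of each HF group, but the other arrays did not keep the order of the matrix genes. DTG array 4 had a macrophage median of 1.24 and a matrix set median of 0.049. Wild-type HF array 1 had 0.68 and 0.027. The median log2 difference of 14 Kupffer cell and macrophage markers from the normal-diet mean was 0.68, 1.14, -0.0084 and 0.47 on wild-type HF arrays 1 to 4 and 0.80, 1.76, 0.40 and 1.24 on DTG arrays 1 to 4. On the normal diet it was 0.40, -0.50 and -0.0099. The summed signal of all 15 such markers with a probe set, of which Marco alone was under the dim limit, ranged from 3687 to 6792 on the normal diet. It was 5026 to 12329 in wild-type HF mice and 6316 to 16831 in DTG mice. In DTG mice against the normal diet 2 of these 14 rose (2.08% of all genes passed), Folr2 (log2 difference 1.53, adjusted p = 0.0447) and Cd5l (2.02, adjusted p = 0.0456). At an unadjusted p under 0.05, 11 of the 14 were higher in that comparison (78.6%, beside 9.96% of all genes), 3 for the diet (3.92%) and 1 for DTG against wild type (6.95%), and 7, 2 and 1 were higher without overlap (8.46%, 4.58% and 4.32% of all genes). Both calls were lost without any 1 normal-diet array or without DTG array 1, 2 or 4, with adjusted p up to 0.152 and 0.157. Medians of 16 liver endothelial markers were -0.15, -0.040, -0.27 and -0.21 on wild-type HF arrays 1 to 4, all below 0 but with array 2 again the highest and array 3 the lowest. On DTG arrays 1 to 4 they were 0.14, 0.12, -0.16 and -0.14, with array 1 the highest. The part that macrophages play in the matrix gene values was not tested.

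**Figure D5:**
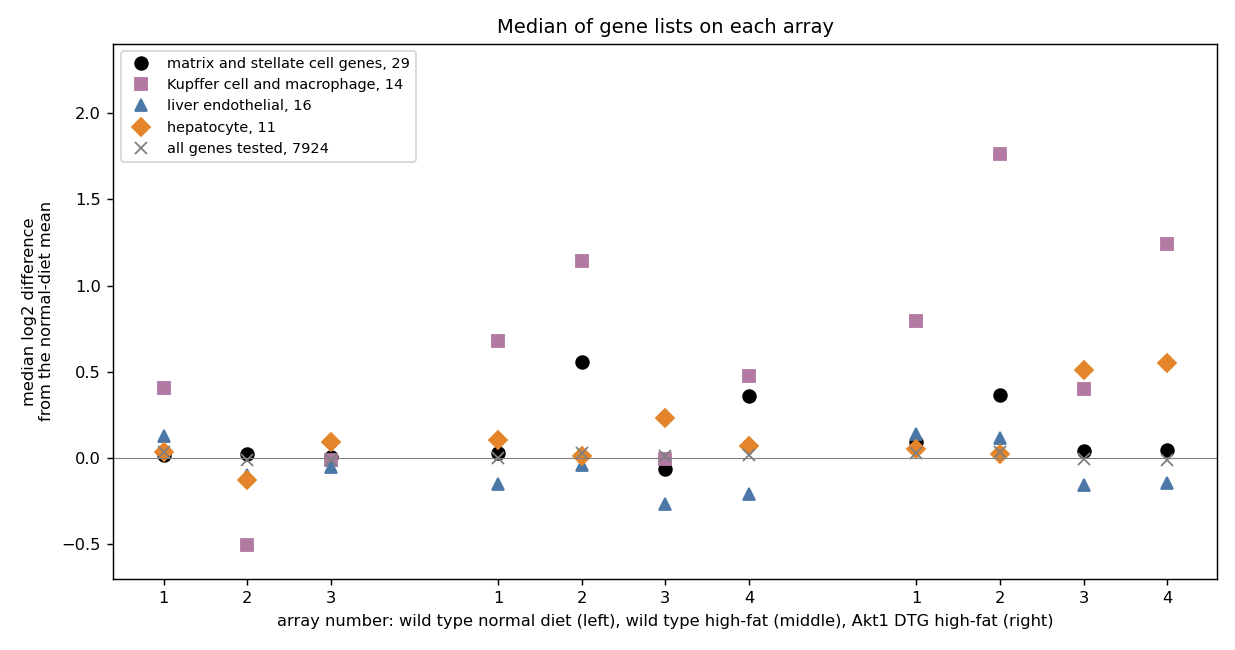
Median log2 difference from the normal-diet mean (y axis) of 5 gene lists on each of the 11 arrays (x axis, by group and array number). The 29 matrix and stellate cell genes peak at 0.55 on wild-type HF array 2 and 0.36 on DTG array 2, the arrays where the Kupffer cell markers are at 1.14 and 1.76. On DTG array 4 the matrix and stellate cell genes are at 0.049 and the Kupffer cell markers at 1.24.

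Leaving out wild-type HF array 2 lowered the median diet difference of the set from 0.17 to 0.039. That array was singled out as the highest of its group for 21 of the 29 genes, so a fall was built in. Leaving out wild-type HF array 1 instead gave 0.30. Without array 2, Sparc went from 0.28 to 0.025 and Tgfbr2 from 0.30 to -0.021. Col1a2 went from 0.65 to 0.41 and Lum from 0.32 to 0.21. The diet difference of Reln went from 0.15 to 0.081. For DTG against wild type, Mmp14 was at 0.45 and Reln at -0.36 without that array.

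Other matrix and pathway genes, 64 of them tested, gave 0 calls at an adjusted p of 0.05 in each comparison, with 1, 11 and 13 at an unadjusted p under 0.05 (1.56%, 17.2% and 20.3%, beside 7.02%, 13.7% and 18.3% of all genes). The TGF-beta and PDGF pathway list held 21 tested genes, with a median log2 difference of -0.12 for the diet, -0.081 for DTG against wild type and -0.19 for DTG against the normal diet. At an unadjusted p under 0.05 it had 0 genes for the diet. For DTG against wild type it had 2 higher and 6 lower (38.1% in all, beside 6.95% higher and 6.74% lower of all genes), and for DTG against the normal diet 0 higher and 7 lower (33.3%, beside 9.96% and 8.35%). Ccn1 (Cyr61), a matricellular protein, had a log2 difference of -0.82 ± 0.21 for DTG against wild type, without overlap (adjusted p = 0.112), and Smad7, an inhibitor of TGF-beta signalling, -1.04 ± 0.34 (adjusted p = 0.210). The type I receptor Tgfbr1 was at -0.47 ± 0.12 for DTG against the normal diet (adjusted p = 0.0636). Among elastic fibre and other matrix proteins, Eln (elastin) was at 1.01 ± 0.30 for DTG against wild type, without overlap (adjusted p = 0.169). Among collagen maturation enzymes, Ppib, a prolyl isomerase of the endoplasmic reticulum, was at 0.50 ± 0.12 for DTG against the normal diet (adjusted p = 0.0575). Of 7 further collagens tested, Col5a3 had the smallest p for DTG against wild type, at -1.01 ± 0.33 (adjusted p = 0.210). Of 8 laminin and basement membrane genes and 7 matrix proteases, 0 passed in each comparison by limma, with 0 and 1 at an unadjusted p under 0.05 over the 3 comparisons.

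Markers of neighbouring cells also differed where the matrix genes did not pass. Gas1, listed as a portal fibroblast marker, fell in DTG mice against the normal diet by 0.73 ± 0.17 on the log2 scale (adjusted p = 0.0456 by limma). Of the 10 genes of that list 7 were under the dim limit. Of the 3 tested, 2 were above 0 in that comparison, with a highest log2 difference of 0.88, so the list did not fall as a whole. The keratins Krt8 and Krt18, which hepatocytes and bile duct cells share, rose by 0.53 and 0.73 on the log2 scale in the same comparison (adjusted p = 0.0193 and 0.0358), while Krt7, Krt19, Sox9 and Epcam, more particular to bile ducts, were under the dim limit. For the diet in wild-type mice Krt8 was at 0.71 (adjusted p = 0.0705, the smallest of all genes), Krt18 at 0.41 and Krt23, the third tested gene of the bile duct list, at 1.77 (adjusted p = 0.670 and 0.591), each without overlap. For DTG against wild type they were at -0.18, 0.32 and -0.39 (adjusted p = 0.399, 0.350 and 0.758). The Gas1 call was lost without any 1 of the 7 arrays compared (adjusted p up to 0.158). The Krt8 call was lost without any 1 normal-diet array or DTG array 4, and the Krt18 call also without DTG array 3 (adjusted p up to 0.0690 and 0.125). Of 14 lymphocyte and neutrophil markers 13 were under it.

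Probe sets of a gene did not always go the same way. Of 34 further probe sets of tested genes, 24 had the sign of the brightest one for the diet, 26 for DTG against wild type and 20 for DTG against the normal diet. Among the 18 of them above the dim limit these counts were 14, 15 and 11.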

How the data were processed

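Per the labels' protocols, liver RNA was copied from a poly-dT primer and then transcribed in vitro with biotin. The deposited linear intensity values (signal) come from MAS5, whose version the submitters' processing notes leave out. MAS5 reduces a probe set to 1 value and scales arrays one by one. No detection calls were used here. Values under 1 (1386) were set to 1 before log2, and the 64 manufacturer controls were left out.

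Symbols came from the platform annotation: it gave 1 symbol to 20380 probe sets, several to 691 and none to 1555. Only the first kind was named. All 69 probe sets of the genes described matched RefSeq (GRCm38.p6) by Entrez identifier, with 0 symbols changed. The dimmest 40% of probe sets were left out of the gene fit and the brightest probe set stood for a gene, which left 7924 genes. Differences were fitted with limma 3.58.1 in R 4.3.3 (lmFit, eBayes with an intensity trend) over all 11 arrays with a mean per group, two-sided, with Benjamini-Hochberg adjustment over all genes and a threshold of 0.05; a second fit took all 22626 probe sets. Each log2 difference carries the moderated standard error of limma. The fit was tested on simulated data. The results were also computed with no filter or a 60% filter, after quantile normalization, as log2(signal + 32), without an intensity trend, on only the groups compared, with a replicate block, with the mean over probe sets, and without single arrays.

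The genes, lists and markers were chosen with earlier results of these data known. All genes of the set were to be named, and of other lists those past the threshold or at most the 2 of smallest p per list and comparison.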

Additional observations from a re-analysis of the deposited data

Results flagged for a closer look

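In 70 groups of 4 arrays (35 genes in the 2 HF groups, brightest probe set each), 3 held an array whose gap to its nearest neighbour was over 0.829 of the group's range; chance does this in about 1 of 20 groups. Col5a2 stood at 1926.0 on DTG array 2, with its nearest neighbour at 121.3. Timp1, a dim probe set, stood at 3.2 on wild-type HF array 3, with the other arrays from 42.5 to 46.0. Tagln, also dim, stood at 43.2 on wild-type HF array 3, with the others from 71.5 to 77.3.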

How the results depend on the processing

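Of the 29 genes, 0 passed the threshold under any alternative, and of 1446 alternative values of single genes 1437 stayed within 1 SD between mice of the reported value and 9 moved further. The sign differed in 101, of which 4 had a reported size of at least 0.25. Counts over all genes depended on the settings. For DTG against wild type, the 29 calls became 12 with no filter, 0 without an intensity trend, 8 with only the groups compared, 16 with the mean over probe sets and 4 without DTG arrays 3 and 4, and they ranged from 0 to 64 when single arrays were left out (0 without wild-type HF array 1, 64 without array 2). For DTG against the normal diet, the 165 calls became 81 without an intensity trend, 104 with only the groups compared and 23 without DTG arrays 3 and 4, and ranged from 36 to 162 when single arrays were left out. For the diet, leaving out single arrays gave 0 to 2 calls. Probe sets of the set called for DTG against the normal diet ranged from 0 to 1. Cause was not tested in each case.

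With the replicate number as a block there were 2 calls over all genes for the diet, 31 for DTG against wild type and 139 for DTG against the normal diet, and 0 of the 29 genes in each. Same-numbered arrays of the 2 HF groups correlated in their deviations from the group means by 0.0842, 0.292, 0.135 and 0.122 over all genes, each best with its own number, a hint from the data and not the design; for the other comparisons the values ran from -0.0721 to 0.111. The numbers were not taken as a pairing. Leaving out the arrays numbered 2 of both HF groups, an alternative chosen after seeing the data, gave set medians of 0.039, 0.024 and 0.080 for the 3 comparisons. The median for DTG against wild type was below 0 with no filter (-0.12) and with a 60% filter (-0.13). Between 3 and 4 arrays a group and dim probe sets, 6 of the 35 genes among them, limit what could be detected.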
